A study of Mus musculus with 6 samples.

Results

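The nuclear-encoded genes of oxidative phosphorylation were followed in mouse bone marrow-derived macrophages (BMDMs) with and without a deletion of exons 3 and 4 of hnRNPD, the gene of the RNA-binding protein AUF1. The members were taken by symbol: every protein-coding gene whose symbol starts with Nduf, Uqcr, Cox4 to Cox8 or Atp5, together with Sdha, Sdhb, Sdhc, Sdhd, Cycs and Cyc1. This gave 97 of the 21820 protein-coding genes listed, with 444 of the 142567 transcripts listed (1 to 14 transcripts per gene, median 4). RNA came from 3 control cultures (hnRNPDfl/fl) and 3 M-Δx3,4 cultures (LysCre+hnRNPDfl/fl), all from C57BL/6J mice, differentiated for 10 days in L929-conditioned medium and given 100 ng/ml LPS for 4 hours. Both groups carry the floxed allele, and only the M-Δx3,4 cells carry the Cre, which the lysozyme M promoter drives in myeloid cells and which makes that deletion. The sources used here do not say whether the cultures of a group came from separate mice, so p-values measure the spread between these cultures, which may be technical. No untreated cells were part of the series, and every value below is a value after LPS.

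Reads were counted on the 3′ ends of transcripts. Counts on all regions of 1 transcript were summed, and each gene is represented here by the transcript with the highest mean normalized count. Over these transcripts the libraries held 2503213 to 3846120 counts. The Hnrnpd transcript of the p37 isoform was counted at 177.8, 104.2 and 69.6 (normalized) in control and at lower levels, 52.8, 12.6 and 16.0, in M-Δx3,4, while the longer p45 transcript overlapped between the groups (335.9, 185.9 and 104.4 against 137.9, 124.3 and 160.5). The counted regions of both lie at the 3′ end, outside the deleted exons, so these counts do not check the deletion itself. Regions of overlapping transcripts share reads, so these counts do not rank the isoforms either. The paper reports the p45 RNA as poorly expressed in macrophages. Macrophage markers were present in every library, with summed levels of 6717 to 7444 normalized counts in control and 5798 to 7368 in M-Δx3,4. Of the 9 macrophage markers, Lyz2 fell at an unadjusted p under 0.05 (1992.1, 1788.0 and 2200.8 against 1342.0, 881.7 and 968.2), and the lysozyme M locus is the one that carries the Cre in this line. The sum of 7 B cell markers (4 tested, 1 past the test) was lower in M-Δx3,4 (142.7 to 165.3 against 301.0 to 358.5, mostly Igkc), and the sum of 5 T cell markers was low and overlapped (10.44 to 45.33 in control and 12.72 to 25.25 in M-Δx3,4, mostly Cd3d, with Cd3e, Cd3g and Cd2 at 0). The part of B cell RNA in the results below was not tested. Control replicates 1 and 3 stood apart from each other (r = 0.764 across genes, on log2 normalized counts), against 0.808 to 0.971 for the other pairs of libraries. In bulk RNA, fewer cells of a type and less RNA per cell cannot be told apart.

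Oxidative phosphorylation takes electrons from NADH (complex I) and succinate (complex II) through ubiquinone, complex III and cytochrome c to oxygen (complex IV), and complex V uses the resulting proton gradient to make ATP. Most subunits are encoded in the nucleus and imported, while a core set comes from mitochondrial DNA. None of the mitochondrially encoded genes was listed in the counts table. In macrophages, LPS is known to shift ATP production towards glycolysis, with succinate oxidation by complex II tied to reactive oxygen species and IL-1β. AUF1 binds AU-rich elements in 3′ untranslated regions and alters the decay of the mRNAs that carry them.

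In the LPS-treated BMDMs, the oxidative phosphorylation genes as a list were at nearly the same level in control and M-Δx3,4. Their counts summed to 1.14%, 1.14% and 1.31% of all gene counts for the control cultures, against 1.21%, 1.14% and 1.16% for the M-Δx3,4 cultures. The means were 1.2% ± 0.0993 and 1.17% ± 0.0385 (SD, n = 3 each), and the groups overlapped (exact permutation test, two-sided, p = 0.8). Control replicate 3 was the highest library, and without it the difference, M-Δx3,4 minus control, went from -0.0298 to 0.0275 percentage points. Intervals of counting error do not cover the spread between cultures, which is the larger here.

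Of the 97 members, 89 passed the filter on low counts. Their log2 fold changes (M-Δx3,4 against control) had a median of -0.03 and quartiles of -0.31 and 0.21. Over all 11875 genes tested the median was -0.01, with quartiles of -0.38 and 0.34. A log2 fold change above 0 was found in 40 of the 89 members (44.9%) and in 49.5% of all genes tested. By edgeR's quasi-likelihood test no member had an adjusted p under 0.05 (0.0% of all genes tested), nor by DESeq2's Wald test. At an unadjusted p under 0.05, 3 members rose (3.37%, against 1.45% of all genes tested) and 2 fell (2.25%, against 2.53%). DESeq2 gave 2 and 2, with 1.15% and 1.85% of all genes. Without control replicate 1 the edgeR counts were 4 and 9 of 89, in a fit that called 9.61% and 6.41% of all genes. Without control replicate 3 they were 1 and 0 of 88, with 1.12% and 1.46% of all genes. Without M-Δx3,4 replicate 2 no member passed in either direction, with 1.03% and 1.57% of all genes called. The 3 that rose were Ndufv2, Ndufaf7 and Ndufa4, and the 2 that fell were Cyc1 and Uqcrc1. For these genes and the lists below, "rose" and "fell" refer to the unadjusted p. The adjusted p of each of the 5 was 0.984.

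**Figure D1:**
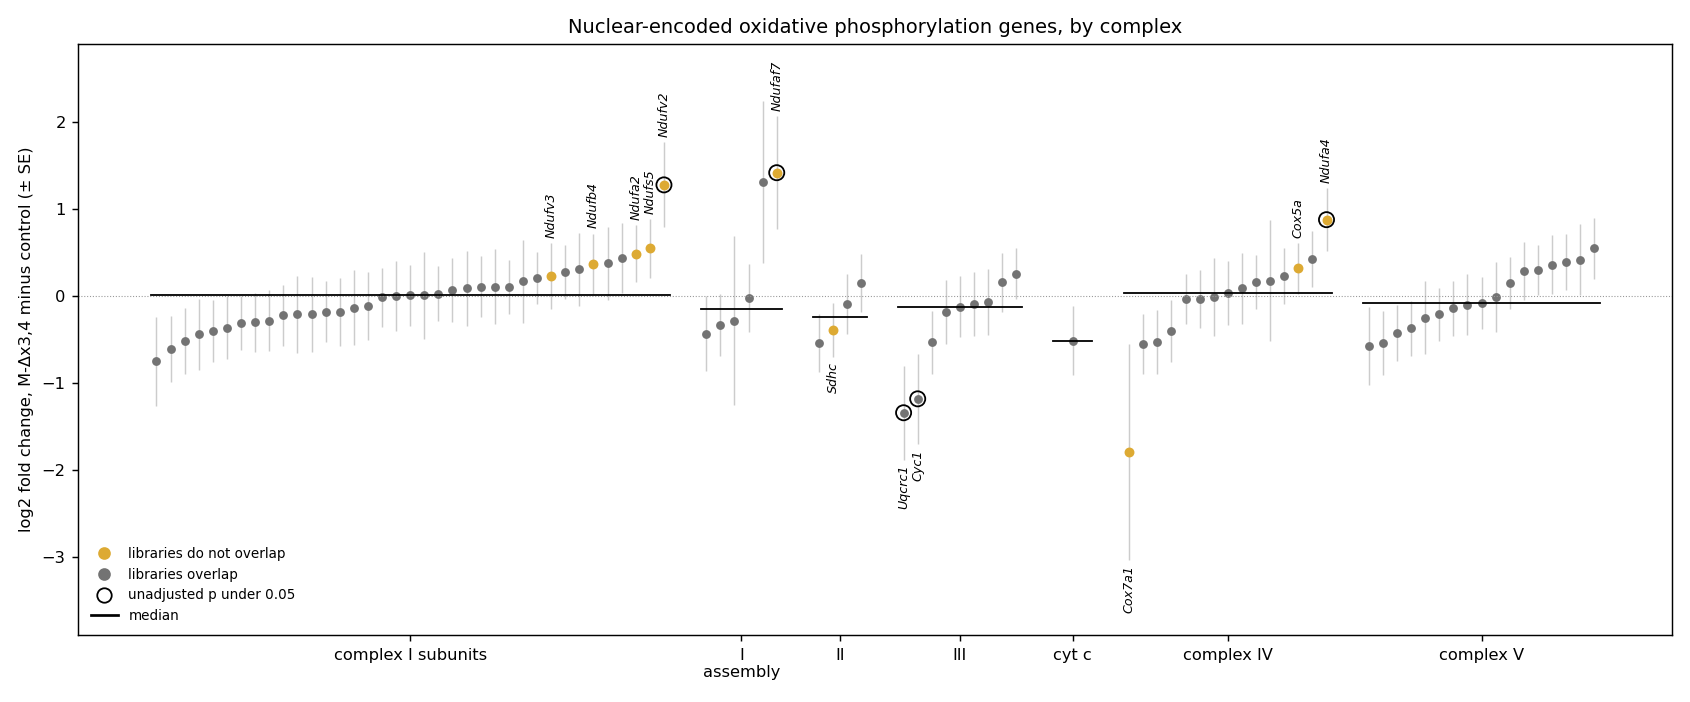
Log2 fold change (M-Δx3,4 minus control, with its standard error) of each of the 89 members tested, grouped by complex, with the median of each group as a line. Most members lie near 0, with Ndufv2, Ndufaf7 and Ndufa4 above and Cyc1 and Uqcrc1 below as the 5 members with an unadjusted p under 0.05.

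The groups did not overlap in 10 members. In 8 of the 89 (8.99%) every M-Δx3,4 library was above every control library, against 4.18% of all genes tested: Ndufa2, Ndufb4, Ndufs5, Ndufv2, Ndufv3, Ndufaf7, Ndufa4 and Cox5a. In 2 of the 89 (2.25%) every M-Δx3,4 library was below every control library, against 4.26% of all genes tested: Sdhc and Cox7a1. Cox7a1 passed the filter only through control replicate 3, in the group where it is high, so its place here is partly set by the filter. The exact permutation test gives p = 0.1 for each of these 10, the smallest that 3 against 3 allow.

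**Figure D2:**
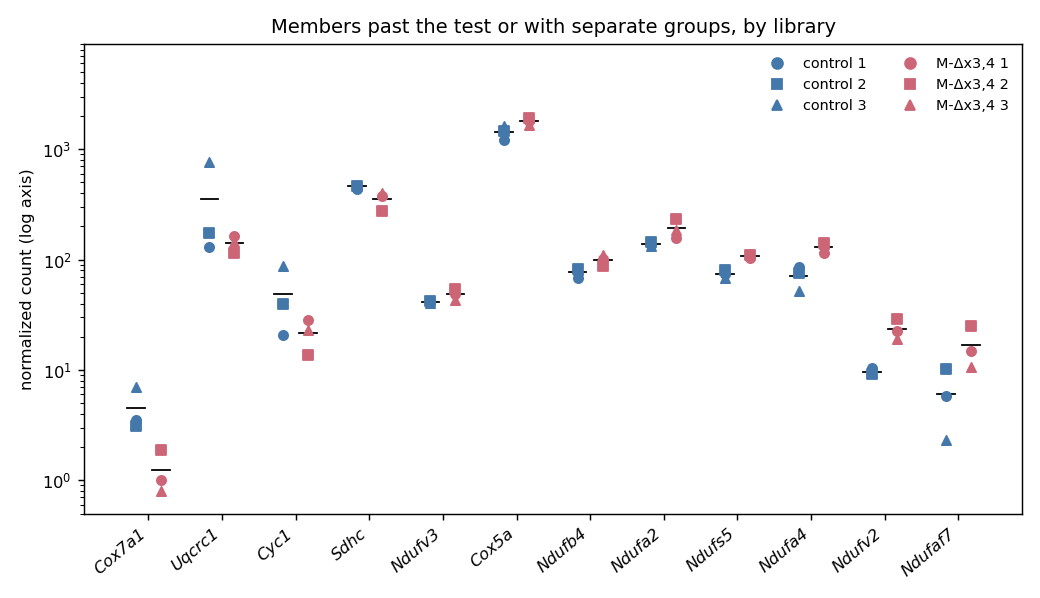
Normalized count (log axis) of the 12 members that passed the test or whose groups did not overlap, with 1 point per library and a line at the mean of each group of 3. For Uqcrc1 the control mean is pulled up by control replicate 3 alone and for Cyc1 mostly by it, while Ndufv2, Ndufs5 and Ndufa4 have 2 separate clusters.

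Complex I, which oxidizes NADH, had 37 subunit genes in the list, and all 37 were tested. Their median log2 fold change was 0.01, with a range from -0.75 for Ndufv1 to 1.28 for Ndufv2, and 20 of 37 were above 0. The summed share was 0.22%, 0.255% and 0.249% in control and 0.246%, 0.25% and 0.222% in M-Δx3,4 (exact permutation test, two-sided, p = 0.8). The subunit genes with the highest mean counts were Ndufa1 and Ndufa13. Ndufa1, an accessory subunit needed for assembly, had 1069.3, 851.1 and 733.2 normalized counts in control and 1280.4, 865.2 and 1082.1 in M-Δx3,4. Ndufa13, also known as the cell death regulator GRIM-19, had 392.8, 886.8 and 736.7 against 647.5, 626.3 and 453.2. Both overlapped between the groups.

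Among the core subunits, which carry the flavin and the iron-sulfur clusters, Ndufv2 rose. It encodes the 24 kDa subunit, an iron-sulfur protein of the NADH-oxidizing module. The control libraries held 10.5, 9.2 and 9.3 normalized counts and the M-Δx3,4 libraries 22.5, 29.1 and 19.1. The control libraries varied little and every M-Δx3,4 library was well above them. The log2 fold change was 1.28 (standard error 0.49, unadjusted p = 0.0199 and adjusted p = 0.984 by edgeR). These are few reads: 9, 9 and 8 raw counts in control and 23, 30 and 25 in M-Δx3,4. Without control replicate 2 or M-Δx3,4 replicate 2 the unadjusted p was above 0.05 (0.0539 and 0.0863, from edgeR). Other core subunits had log2 fold changes of -0.75 (Ndufv1), -0.21 (Ndufs3 and Ndufs7), 0.01 (Ndufs1) and 0.17 (Ndufs8).

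Because the reads mark 3′ ends, the ends that were counted are shown for the 2 members that rose and whose annotated 3′ end carries the polyadenylation signal AATAAA. Each line gives 30 bases of the transcript, 5′ to 3′, with the signal in capitals, from GENCODE vM21 on GRCm38.
Ndufv2 (chr17:66079443-66079472, minus strand): tgtcactggacaAATAAAatatgaacttcc
Ndufa4 (chr6:11900374-11900403, minus strand): attacactgatgAATAAAtctctgaaactt
The signal ends 14 bases before the annotated end in Ndufv2 (ENSMUST00000024909) and 13 bases before it in Ndufa4 (ENSMUST00000031637). Both are the 3′ untranslated ends of protein-coding transcripts, and the counted regions reach past them.

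The accessory subunits Ndufs5, Ndufa2, Ndufb4 and Ndufv3 were higher in every M-Δx3,4 library, without passing the test. Ndufs5, a subunit on the intermembrane-space side, had 74.4, 80.7 and 68.4 normalized counts in control and 103.7, 110.7 and 112.3 in M-Δx3,4. The groups lie well apart and each varies little, and the log2 fold change was 0.55 (standard error 0.34, unadjusted p = 0.134 by edgeR). Ndufa2, a small subunit with a thioredoxin-like fold, had 134.8, 144.1 and 133.4 against 158.5, 235.0 and 185.7. Its log2 fold change was 0.49 (standard error 0.33). Ndufb4 had 68.6, 81.7 and 81.2 against 101.7, 87.4 and 109.3, and Ndufv3 had 41.8, 41.9 and 40.6 against 48.9, 54.4 and 42.8. In Ndufb4 and Ndufv3 the nearest libraries of the groups differ by little, 81.7 against 87.4 and 41.9 against 42.8.

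Of the 8 complex I assembly factors, which are not part of the finished enzyme, 6 were tested and Ndufaf7 rose. It encodes a methyltransferase needed for assembly of the complex. The control libraries had 5.8, 10.2 and 2.3 normalized counts and the M-Δx3,4 libraries 14.7, 25.2 and 10.7, with a gap of less than 1 count between the nearest 2 libraries. The log2 fold change was 1.42 (standard error 0.65, unadjusted p = 0.0442, adjusted p = 0.984 by edgeR). Its other 3 transcripts that were tested had log2 fold changes of 1.05, 1.10 and 1.13, with unadjusted p-values of 0.203, 0.188 and 0.258 by edgeR. DESeq2 gave an unadjusted p of 0.0751, and 4 of the 6 fits that each left out 1 library also gave a p above 0.05. The assembly factors with the highest counts, Ndufaf8 and Ndufaf3, overlapped between the groups: 110.4, 160.4 and 207.7 against 96.8, 131.1 and 152.8 for Ndufaf8, and 59.3, 59.3 and 68.4 against 50.9, 85.5 and 48.9 for Ndufaf3.

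Complex II, succinate dehydrogenase, has 4 subunits, all nuclear and all tested, and none passed the test. A total of 3 of the 4 had a log2 fold change below 0, with a median of -0.24. Sdhc, a membrane anchor of the ubiquinone site, had 438.2, 465.9 and 479.1 normalized counts in control and 374.6, 277.7 and 399.7 in M-Δx3,4. All M-Δx3,4 libraries were below all control libraries, and the log2 fold change came to -0.39 ± 0.31 (SE, unadjusted p = 0.217 by edgeR). Sdhb, the iron-sulfur subunit and the most abundant of the 4 by count, had 570.7, 1043.2 and 691.5 against 670.0, 483.6 and 437.9, which overlap in 1 library. Sdhd, the other anchor, had 606.7, 536.4 and 259.9 against 395.2, 408.8 and 515.8, with the lowest value in control replicate 3. Sdha, the flavin subunit, had a log2 fold change of 0.15 ± 0.33 (SE). The share of all 4 was 0.0641% ± 0.0103 in control and 0.0523% ± 0.00681 in M-Δx3,4 (SD, n = 3 each, exact permutation test, two-sided, p = 0.2).

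Complex III, the cytochrome bc1 complex, held the 2 members that fell, and both depend on control replicate 3. Uqcrc1, a core protein of the matrix side, had 130.2, 172.7 and 768.0 normalized counts in control and 164.3, 115.6 and 143.7 in M-Δx3,4. Control replicates 1 and 2 lie within or close to the M-Δx3,4 range, and control replicate 3 has over 4 times the count of any other library. The log2 fold change was -1.34 (standard error 0.54, unadjusted p = 0.0249, adjusted p = 0.984 by edgeR), and without control replicate 3 it was -0.09 (unadjusted p = 0.799 by edgeR). Cyc1, which encodes cytochrome c1, had 20.9, 39.8 and 87.0 in control and 28.4, 13.6 and 22.9 in M-Δx3,4. Its log2 fold change was -1.18 (standard error 0.52, unadjusted p = 0.0389, adjusted p = 0.984 by edgeR), and -0.48 without control replicate 3 (unadjusted p = 0.335 by edgeR). The transcript that represents Cyc1 is not annotated as coding, but the coding ENSMUST00000023210 had nearly the same counts and a log2 fold change of -1.22. In the replicate block fit, neither gene kept an unadjusted p under 0.05 (0.0922 for Uqcrc1, 0.0724 for Cyc1, from edgeR). Nor did they without M-Δx3,4 replicate 2 (0.0789 and 0.138) or replicate 3 (0.0528 and 0.0721, from edgeR). Both genes stayed under 0.05 without control replicate 1, control replicate 2 or M-Δx3,4 replicate 1, in fits that all hold control replicate 3.

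The other 7 genes of complex III had log2 fold changes from -0.53 to 0.26. Uqcrh, the hinge protein next to cytochrome c1 and the most abundant of the complex by count, had 978.6, 1137.1 and 1030.2 in control and 1285.3, 1372.1 and 1101.2 in M-Δx3,4, overlapping in 1 library. Uqcr11, a small subunit, had 401.0, 437.3 and 893.3 against 446.0, 309.8 and 440.9, again with control replicate 3 alone at the top. The summed share of complex III was 0.0777%, 0.083% and 0.114% in control and 0.0907%, 0.0799% and 0.0827% in M-Δx3,4 (exact permutation test, two-sided, p = 0.8). Cycs, the electron carrier between complexes III and IV and a trigger of apoptosis when released, had 246.4, 92.0 and 143.9 against 117.4, 89.3 and 132.2, and a log2 fold change of -0.51 ± 0.40 (SE, unadjusted p = 0.222 by edgeR).

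**Figure D3:**
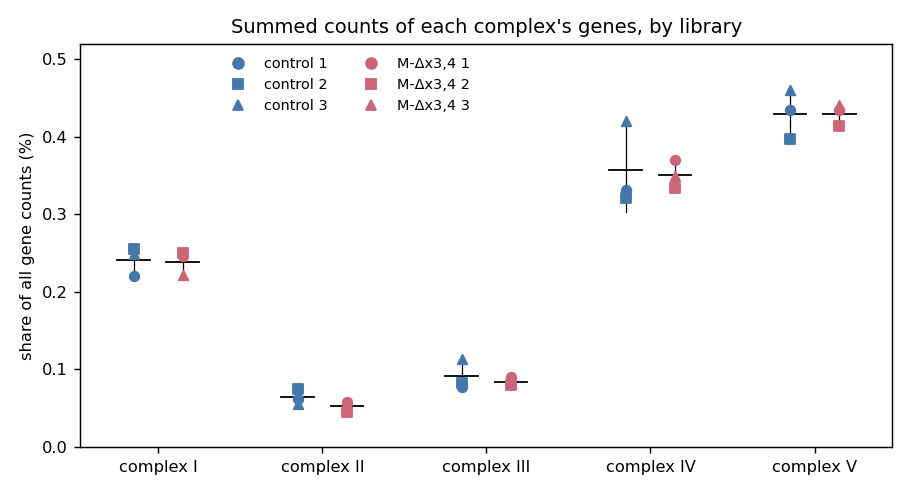
Summed counts of the genes of complexes I to V as a percent of all gene counts, with 1 point per library, a line at the mean and bars of 1 SD (n = 3). The groups overlap for all 5 complexes, and control replicate 3 is the highest library for complexes III, IV and V.

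Complex IV, cytochrome c oxidase, includes Ndufa4, which was named as a complex I subunit and later assigned to complex IV, and which rose. Control held 86.0, 75.6 and 52.2 normalized counts, M-Δx3,4 held 114.4, 140.8 and 137.6. Each M-Δx3,4 library exceeded the highest control library. The log2 fold change was 0.88 (standard error 0.36, unadjusted p = 0.0279, adjusted p = 0.984 by edgeR), and between 0.71 and 1.03 when each library was left out in turn. In 4 of these 6 fits the unadjusted p was above 0.05, up to 0.0808 (from edgeR). Another 3 Ndufa4 transcripts share the same counts, and 1 more had a log2 fold change of 0.63 (unadjusted p = 0.128 by edgeR). Cox5a, a subunit on the matrix side, had 1203.0, 1461.0 and 1639.3 against 1799.8, 1920.7 and 1659.1. Its nearest libraries, 1639.3 and 1659.1, almost touch, and the log2 fold change was 0.32 (standard error 0.29).

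Of the paired isoforms of complex IV, the ubiquitous forms were counted in every library and most forms known from single tissues were at or near 0. Cox4i1, the ubiquitous form of subunit 4, had 1085.6, 1629.6 and 3159.1 normalized counts in control and 1270.6, 1355.6 and 1429.8 in M-Δx3,4, whereas Cox4i2, known from lung and from hypoxia, had no count. No count was found either for Cox8b, the heart and muscle form, for Cox8c and Cox7b2, known from testis, or for Ndufa4l2, a target of hypoxia signalling. A count of 0 allows up to 3 counts, or 0.00012% of the gene counts of the shallowest library, by counting error alone. Cox6b2, a testis form, had 1.9 normalized counts in M-Δx3,4 replicate 2 and none elsewhere. In TPM, the authors' values per length of the counted region, Cox6a1 held 97.4% to 99.7% of the sum of Cox6a1 and the muscle form Cox6a2 in the 6 libraries. Cox6a2 was low but counted in every library, with 5.8, 20.4 and 3.5 normalized counts in control and 15.7, 12.6 and 6.1 in M-Δx3,4.

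For the Cox7a set, Cox7a1 (heart and muscle) had 3.5, 3.1 and 7.0 normalized counts in control and 1.0, 1.9 and 0.8 in M-Δx3,4, and passed the filter through control replicate 3 alone. Its raw counts summed to 12 and 4. Per length, Cox7a2l had the largest part of the set in every library but control replicate 3: 79.6%, 66.9% and 47.5% of its TPM in control and 60.6%, 67.8% and 77.0% in M-Δx3,4. By normalized count, not divided by length, Cox7a2l was the largest in every library, with 66.2% to 89.5% of the set. Cox7a2 held 19.5%, 32.4% and 50.9% against 39.2%, 31.8% and 22.8%. Control replicates 1 and 3 are the extremes of this ratio, and the groups overlap. Cox8a (975.2, 958.4 and 2005.9 against 904.8, 725.4 and 1063.0 normalized counts), Cox6a1 (408.0, 638.6 and 1000.1 against 479.3, 668.1 and 408.1) and Cox4i1 share a high control replicate 3, while Cox6b1 (1165.8, 1132.0 and 1320.3 against 1351.8, 1095.3 and 1106.6) was even. Cox6c, the most abundant complex IV gene by count, had 2335.0, 1394.6 and 1364.3 against 2071.8, 1610.9 and 2016.7. Cox5b-ps, like Ndufb1-ps in complex I, carries the name of a copy of another gene, so its reads (45.3 to 147.1 normalized counts) are uncertain.

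Complex V, the ATP synthase, had 17 genes, all tested, and none passed the test or had groups that did not overlap. Their log2 fold changes ran from -0.57 (Atp5j) to 0.55 (Atp5e), with a median of -0.08. The share was 0.435%, 0.397% and 0.46% in control and 0.435%, 0.414% and 0.441% in M-Δx3,4, the largest of the 5 complexes in every library (exact permutation test between the groups, two-sided, p = 1.0). Atp5g3 had the highest count of all members: 4647.9, 3817.1 and 5761.3 in control and 4677.6, 3172.3 and 4446.9 in M-Δx3,4. Atp5g1, Atp5g2 and Atp5g3 encode the same mature subunit c of the rotor ring, with different import sequences. In TPM, Atp5g3 held 87.5% to 95.4% of the set, Atp5g2 4.53% to 12.3% and Atp5g1 0.0875% to 0.226%. By normalized count, not divided by length, Atp5g1 held 1.57% to 3.93% of the set, and its counted region is the longest of the 3. Atp5l, subunit g of the membrane part, followed with 2410.6, 1599.0 and 1753.0 against 2143.2, 2478.1 and 2474.5 normalized counts.

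Levels between genes are given in the authors' TPM, which divides by the length of the counted region. As the reads mark 3′ ends, this scale can lower genes with long regions, and the order below holds for it alone. In TPM, Atp5g3 was far above the rest, with 1370 ± 270.0 in control and 1220 ± 285 in M-Δx3,4 (SD, n = 3 each). Cox7c (334 ± 118 and 456 ± 74.9), Atp5l (349 ± 102 and 436 ± 30.9) and Cox5a (254 ± 24.8 and 327 ± 14.8) came next, and Cox7c and Atp5l did not differ from each other beyond their spread. Ndufv2 (2.33 ± 0.357 and 5.79 ± 0.989) and Ndufaf7 (0.238 ± 0.156 and 0.697 ± 0.282) are among the low members on this scale, and Ndufa4 is intermediate (12.6 ± 3.72 and 23.4 ± 2.19).

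The control libraries differed among themselves in how the members stood. Control replicate 3 was the highest of the 6 libraries for 26 of the 89 members (29.2%, against 25.3% of all genes tested) and the lowest for 23 (25.8%, against 28.7%). High and low values there went with the GC content of the last 500 bases of the transcript. For the 28 members with the most GC (53.4% to 58.9%) the median log2 deviation from the mean of the libraries was 0.34 in control replicate 3, 0.21 in control replicate 2 and -0.29 in control replicate 1. For the 29 members with the least (33.8% to 46.8%) it was -0.27, -0.08 and 0.19. The M-Δx3,4 libraries ranged from -0.22 to 0.15, the 25 members between these included. Across 82 members with a mean of at least 20 normalized counts, the correlation of GC content with the deviation was -0.44, 0.43 and 0.39 in control replicates 1 to 3 and -0.20, 0.15 and -0.45 in M-Δx3,4 replicates 1 to 3. Across 6771 genes tested it was -0.53, 0.47 and 0.43 against -0.16, 0.07 and -0.53, so M-Δx3,4 replicate 3 resembled control replicate 1. These are descriptions over genes that share a library. With the GC trend of each library removed, 4 members rose and none fell at an unadjusted p under 0.05, against 3 and 2. That fit called 1.71% of all genes higher and 3.07% lower. In it the log2 fold changes of Uqcrc1 and Cyc1 were -0.89 and -0.92 (unadjusted p = 0.0527 and 0.0619, from edgeR). The 4 that rose in that fit were Ndufv2, Ndufa4, Ndufs5 and Atp5e (chosen after its values were seen), and Ndufaf7 no longer passed.

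**Figure D4:**
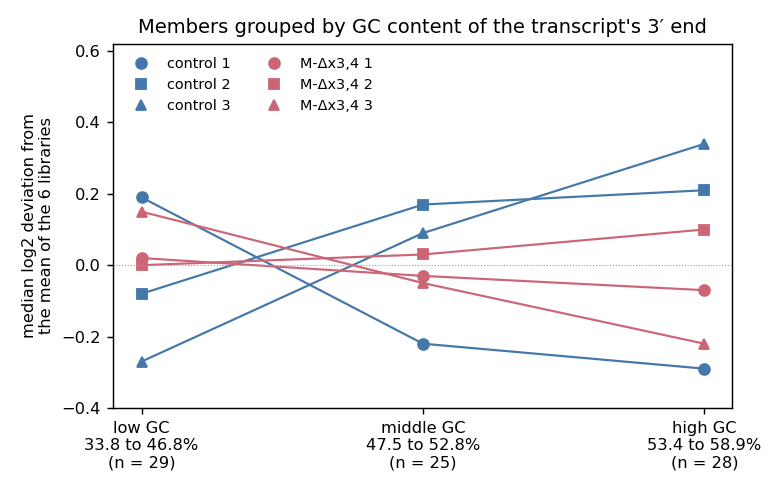
Median log2 deviation of each library from the mean of the 6 libraries, for members in 3 groups by GC content of the last 500 bases of the transcript. Control replicate 3 goes from -0.27 at low GC to 0.34 at high GC and control replicate 1 from 0.19 to -0.29, while the M-Δx3,4 libraries lie between.

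AUF1 is known for binding AU-rich elements, so the 3′ untranslated regions of the members were searched for their core, ATTTA, on the RNA strand. Of the members tested, 54 are represented by a coding transcript with an annotated 3′ untranslated region, of median length 193 bases, against 1190 bases for 8778 genes tested. ATTTA occurred in 24 of the 54 (44.4%), against 70.4% of those genes, and the longer TTATTTATT in 1 (1.85%, against 7.85%). The median log2 fold change was -0.01 for the 24 members with ATTTA and 0.01 for the 30 without it. Over all genes with such a region it was 0.07 for 6182 with ATTTA and -0.14 for 2596 without it. Limited to regions no longer than the members' longest, these medians were 0.04 and -0.14. Over all genes those with ATTTA also had longer regions (median 1700 bases against 441). Log2 fold change correlated with GC content at -0.30 across all genes tested with a mean of at least 20. The part of length and of GC content in this difference was not tested. The windows below show the members with the most elements, 8 in Cycs and in Ndufaf4 and 4 in Sdhd (Ndufb2 also has 4), and those of Ndufaf7 and Sdhc, with the element in capitals (5′ to 3′, GRCm38).
Cycs (chr6:50565207-50565236, minus strand): ttccactgccTTATTTATTacaaaacaaat
Ndufaf4 (chr4:24902116-24902145, plus strand): aattttttaaaaATTTAtgtatgtgtagtt
Sdhd (chr9:50596934-50596963, minus strand): gttattttcagaATTTAtttgttgaggaag
Ndufaf7 (chr17:78946787-78946816, plus strand): ctgtactgcatcATTTAcatcattagtcct
Sdhc (chr1:171129743-171129772, minus strand): atcatcaaactgATTTAtattcctgtttat
Cycs holds the single TTATTTATT. Of these 5 genes only Ndufaf7 passed the test, upwards, and Cycs, Ndufaf4, Sdhd and Sdhc had log2 fold changes of -0.51, -0.43, -0.09 and -0.39. A match is a description of the letters, not of binding.

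The promoters of the members were searched for motifs that the choice by symbol did not use. NRF1 and GABPA are the transcription factors known for driving genes of the respiratory chain. RefSeq windows from 250 bases before to 50 bases after the start (GRCm38.p6) were found for 78 of the 97 members, and both strands were searched. The core of the NRF1 motif, 10 bases long, occurred in 24.4% of these members and in 5.19% of the 27025 genes with a promoter. CCGGAAG, the core of the GABPA motif, occurred in 24.4% and in 9.93%. Both backgrounds cover all genes with a promoter, tested here or not, and the part of promoter GC content was not tested. A total of 4 members held both motifs. The window of Ndufs5 is shown, with the match (here to the reverse strand) in capitals, as the member with separate groups whose promoter holds the NRF1 motif once.
Ndufs5 (chr4:123718265-123718294, minus strand): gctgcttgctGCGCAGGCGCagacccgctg
The motif starts 98 bases before the transcription start. The log2 fold changes of members with and without a motif had medians of -0.10 and -0.01 for NRF1 and of -0.10 and 0.01 for GABPA.

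Other genes that serve the respiratory chain were given by lists chosen by function. Of 27 tested assembly factors outside the symbol rule, of 14 tricarboxylic acid cycle genes, of 77 mitochondrial ribosomal proteins and of 22 import genes, none passed the test at an unadjusted p under 0.05, in either direction. Over all genes tested 1.45% rose and 2.53% fell at that threshold, so 0 calls in lists this short says little. The same shares apply to the regulators below. The median log2 fold changes of the 4 lists were 0.13, -0.10, -0.04 and -0.19. Of 11 regulators tested, Tfb2m, a mitochondrial transcription factor, rose (3.5, 3.1 and 1.2 against 12.7, 4.9 and 9.9 normalized counts, unadjusted p = 0.0494 by edgeR). Tfb2m passed the filter on low counts only through M-Δx3,4, the group where it is high, so this call is partly set by the filter. Polrmt, the mitochondrial RNA polymerase, fell (19.8, 7.2 and 8.1 against 5.9, 2.9 and 1.5, unadjusted p = 0.0404 by edgeR), and both are at low counts with an adjusted p of 0.984. Ppargc1b, a coactivator of mitochondrial biogenesis, had 27.9, 25.5 and 24.4 against 29.3, 33.0 and 29.0, and Esrra, its partner, 36.0, 25.5 and 52.2 against 33.3, 22.3 and 32.1. In Ppargc1b every M-Δx3,4 library was above every control library, by little, while Esrra overlapped. Of the 11 regulators, 2 had separate groups upwards (Tfb2m and Ppargc1b) and 2 downwards (Polrmt and Twnk), against 4.18% and 4.26% of all genes tested. Twnk (7.0, 2.0 and 4.6 against 1.0, 1.0 and 1.5) passed the filter only through control, the group where it is high. Nrf1 itself overlapped (51.1, 34.7 and 37.1 against 27.4, 38.8 and 43.6).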

How the data were processed

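The 3′ ends of RNA from 6 BMDM cultures, 3 of each genotype, were sequenced (QuantSeq, Ion Proton). Per the labels and the study's methods, the authors aligned reads with TopHat2 2.1.1 and then Bowtie2 (2.3.2 in the submitters' processing notes) to mm10, and deposited raw counts per 3′ region of Ensembl transcripts, without normalization. A second deposited table holds the authors' TPM, used here to compare levels between genes. Its 18 other per-sample columns of normalized counts and its columns of the authors' own fold changes and p-values were not used.

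Regions were summed per transcript, scaled by edgeR's relative log expression factors, and kept where a library exceeded the median normalized count (4.89). This left 32475 transcripts, of which 11875 represent their gene. The counts were fitted with edgeR 4.0.16 (quasi-likelihood, R 4.3.3), with Benjamini-Hochberg adjustment over all transcripts. Standard errors are the absolute log2 fold change divided by the square root of F. Calls used an unadjusted p of 0.05, the p threshold of the study, here without its fold threshold. No transcript had an adjusted p under 0.05 (smallest 0.824). Shares were compared with exact permutation tests (scipy 1.17.1). DESeq2 1.42.0 was an alternative. The fit was tested on simulated data.

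Transcripts were matched to GENCODE vM21 (99.1% found). Of the 89 representative transcripts of members, 62 are annotated as coding there. Regions of overlapping transcripts share reads, and near-identical copies can split them. Named genes are all members past the test, the 2 with the highest mean count in each group, up to 5 increases and 5 decreases with separate groups, and the isoform sets. The members and lists were chosen with earlier results of these data known. Cox7a1 was the 1 member that passed the filter through a single library. A withheld item is not reported here.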

Additional observations from a re-analysis of the deposited data

How the results depend on the processing

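The alternatives were TMM or library totals only, DESeq2, no filter, filterByExpr, at least 10 counts in every library, 1 transcript per gene, the sample number as a replicate block, a stricter p, the study's fold threshold, each library left out in turn, and, chosen after seeing the data, removal of each library's GC trend and a shortened NRF1 motif. The main counts were 3 higher and 2 lower. With at least 10 counts in every library 1 was higher, with 1.2% of all genes. In the fit with the replicate block 0 were lower (1.63% of all genes), and with the GC trend removed 0 were lower (3.07% of all genes). At p under 0.01 there were 0 in each direction. Leaving out 1 library gave 0 to 4 higher and 0 to 9 lower, in fits that called 0.803% to 9.61% and 1.46% to 6.41% of all genes. The median log2 fold change of the members stayed between -0.07 and 0.01, and the share difference ran from -0.059 to 0.0275 percentage points. The share does not use normalization, so TMM has no value for it.

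The direction turned for 8 named members, whose log2 fold changes with all libraries ran from -0.53 (Cox4i1) to 0.18 (Cox6a2). Without single libraries the log2 fold change ran from -0.57 to 0.30 for Atp5g1, -0.82 to 0.01 for Cox4i1, -0.21 to 1.27 for Cox6a2, -0.13 to 0.06 for Cox6b1, -0.22 to 0.37 for Cox7a2, -0.50 to 0.03 for Ndufa13, -0.32 to 0.13 for Ndufaf3 and -0.37 to 0.14 for Sdhd. The share difference ran from -0.0124 to 0.00701 percentage points for complex I subunits, -0.0143 to 0.00408 for complex III, -0.0244 to 0.0255 for complex IV and -0.0169 to 0.0143 for complex V. With library totals Ndufaf3 and Cox6b1 had 0.00. With the GC trend removed Ndufa13 had 0.06, Ndufaf3 0.14 and Cox6b1 0.07. With the NRF1 motif shortened by its last base, it occurred in 34.6% of members (7.12% of all genes with a promoter). The median log2 fold changes were -0.14 with it and 0.02 without. The cause was not tested. The 5 members past the test kept their direction in every alternative in which they were tested.

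The sample numbers did not pair the libraries: deviations of same-numbered control and M-Δx3,4 libraries correlated at -0.213, 0.537 and -0.309 across 4723 genes. Control replicate 1 correlated at 0.542 with M-Δx3,4 replicate 3, and control replicate 3 at 0.28 with M-Δx3,4 replicate 1. The replicate block followed the sample numbers, and no fit used these other pairs. The part of this shared variation in the results was not tested. At the depth of these libraries a member with under 10 counts, such as Cox7a1, carries little information on a difference.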
